A study of Mus musculus with 6 samples.

Results

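The nuclear genes of respiratory complex I were followed in microglia of wild-type mice at 2 ages. The genes were those annotated as protein-coding whose mouse symbol starts with Ndufa, Ndufb, Ndufc, Ndufs or Ndufv, which gave 46 genes of the 38924 in the count tables. Of these, 36 encode subunits of the complex, 8 are the Ndufaf assembly factors, and 2, Ndufa4 and Ndufa4l2, carry the name but are placed with complex IV (cytochrome c oxidase). A further 4 genes with the same prefixes (Ndufa11b, Ndufab1-ps, Ndufb4c and Ndufs6b) are not annotated as protein-coding and were left out. The samples were CD11b-positive cells from whole brains of female C57BL/6 mice, the wild-type controls of a study of a heterozygous mouse model, with 3 mice at 5 weeks and 3 at 24 weeks of age. The study's heterozygous libraries were not analysed here. The isolation uses magnetic CD11b beads after removal of myelin, so other cells of the brain can remain.

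Complex I (NADH:ubiquinone oxidoreductase) is the entry point of the respiratory chain. Its matrix arm oxidises NADH on a flavin, passes the electrons along iron-sulphur clusters and hands them to ubiquinone, and its membrane arm pumps protons across the inner mitochondrial membrane. The core subunits of the matrix arm are encoded in the nucleus, those of the membrane arm in mitochondrial DNA, and both arms are surrounded by nuclear-encoded accessory subunits. Assembly factors of the Ndufaf family help to build the complex and are not part of the finished enzyme. Resting microglia rely on oxidative phosphorylation, and activated microglia are known to draw more on glycolysis.

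The libraries held 23198065 to 46434788 gene counts at 5 weeks and 10410625 to 13554336 at 24 weeks. By the study's account the libraries of each age shared 1 sequencing lane, so age and lane cannot be told apart. Reads with more than 1 alignment made up 32.7% to 35.5% of all counted rows at 5 weeks and 22.5% to 23.5% at 24 weeks. Of the unique alignments, 40.0% to 41.8% at 5 weeks and 48.7% to 54.9% at 24 weeks lay in no annotated feature, so this share moved with age without overlap, and its part in the results was not tested. The library labelled 24-week replicate 3 held 78 counts of Xist, the X-inactivation RNA of female cells, against 31677 to 59021 in the other 5 libraries. The study describes female mice, so its account and this gene disagree, and results are also given without this library. The 8 microglia markers were present in every library, with a summed level of 26217 to 30475 CPM (gene counts scaled to a fixed library size with TMM factors) at 5 weeks and 22338 to 24917 at 24 weeks. The replicates are separate mice by the study's methods.

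The first question was whether the subunit genes differed between the ages. Differences between ages are log2 fold changes, 24 weeks over 5 weeks, given with ± 1 SE of the fit. All 46 genes were among the 16157 tested. By edgeR's quasi-likelihood test with Benjamini-Hochberg adjustment over all genes tested, 22 of the 36 subunit genes were lower at 24 weeks, 1 (Ndufab1) was higher and 13 did not pass. Among all genes tested, 13.3% were called lower and 15.5% higher. The median log2 fold change of the subunit genes, 24 weeks over 5 weeks, was -0.53, and 34 of the 36 values were negative, beside a median of 0.0037 over all genes tested. In 27 of 36 subunit genes every 24-week library lay below every 5-week library, whereas 22.1% of all genes tested showed this. Without the library labelled 24-week replicate 3, 15 subunit genes were lower and 1 higher, with a median of -0.45, and 9.02% of all genes tested were then called lower. With scaling to total counts in place of TMM, 19 were lower and 1 higher, beside 9.07% lower among all genes tested. Without 24-week replicate 2, 13 were lower and 0 higher, beside 7.03% lower among all genes tested, and without 5-week replicate 1, 14 were lower and 1 higher, beside 8.13%. With trends in transcript length and GC content removed, 10 were lower and 1 higher, with a median of -0.15, as described with transcript length. These are bulk samples, in which fewer cells of a type and less RNA per cell cannot be told apart.

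Added over the 36 genes, the level in CPM per kilobase of reference transcript was 1029, 1007 and 979 in the 5-week libraries and 698, 687 and 658 in the 24-week libraries. The ages did not overlap, and the mean was 32.3% lower at 24 weeks (681 ± 20.7 against 1005 ± 25.2, SD, n = 3 each). As a share of all gene counts, the subunit genes took 0.0863% to 0.0986% at 5 weeks and 0.0681% to 0.0732% at 24 weeks. The plot of the members by library shows single genes. In the lower direction 27 of the 36 subunit genes were separated, beside 22.1% of all genes tested. Ndufab1 was separated in the higher direction, and the other subunit genes overlapped between the ages.

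**Figure D1:**
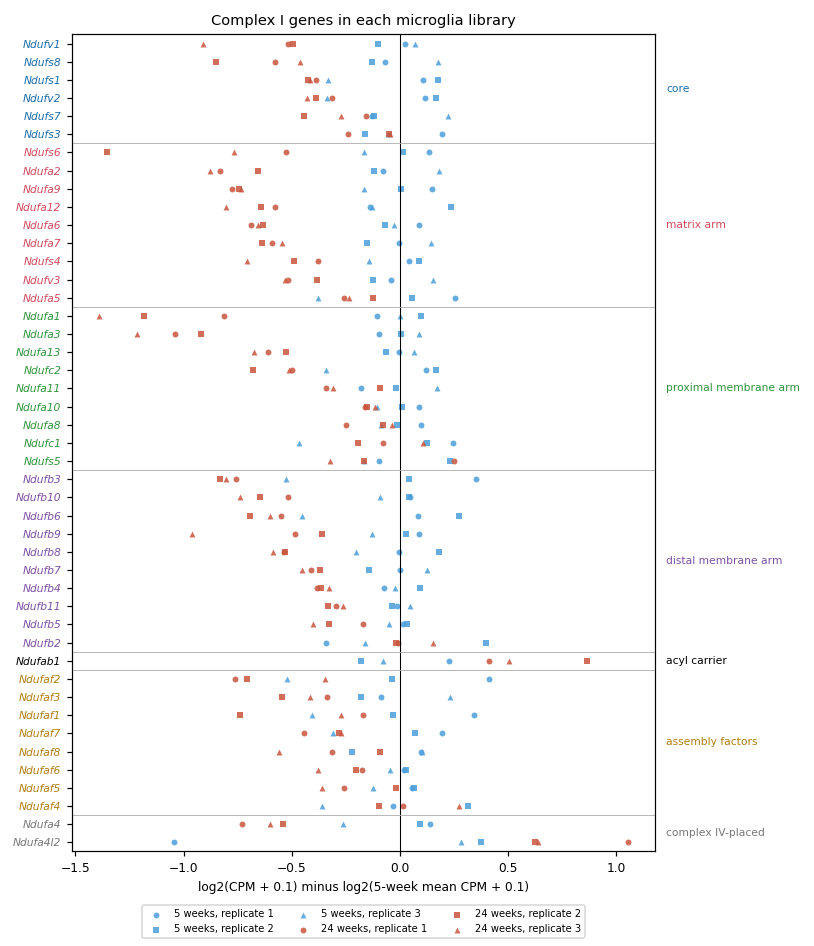
The 45 genes plotted in each of the 6 libraries, as log2(CPM + 0.1) minus log2 of the gene's mean 5-week CPM + 0.1 (x axis), with genes ordered by group and fold change (y axis). Blue points are 5-week and red points 24-week libraries. The red points lie left of the blue for 26 of the 35 subunit genes plotted and right of them for Ndufab1.

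The 7 core subunits of the matrix arm carry the flavin, the iron-sulphur clusters and the quinone site. Of these, 4 fell and 3 did not pass, with a median log2 fold change of -0.41. Ndufv1, which binds NADH and the flavin, stood at 48.4, 44.3 and 49.97 CPM at 5 weeks and 33.1, 33.7 and 25.2 at 24 weeks (log2 difference -0.63 ± 0.13, adjusted p = 0.0052). It was lower in every 24-week library than in any 5-week library. Ndufs8, an iron-sulphur subunit next to the quinone site, measured 33.6, 32.1 and 39.8 CPM at 5 weeks and 23.6, 19.4 and 25.5 at 24 weeks (log2 difference -0.63 ± 0.14, adjusted p = 0.0069). Ndufs1, the large iron-sulphur subunit of the NADH module, measured 83.7, 87.9 and 61.8 CPM and 59.5, 57.9 and 58.3 (log2 difference -0.41 ± 0.14, adjusted p = 0.0427). The 5-week replicate 3 was the lowest of its age for Ndufs1, and the gene passed in 1 of the 6 fits that left out a library, whereas Ndufv1 and Ndufs8 passed in all 6.

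The 3 core genes that did not pass gave smaller values. Ndufv2, the iron-sulphur subunit beside Ndufv1, was at 36.1, 37.4 and 26.4 CPM at 5 weeks and 26.8, 25.4 and 24.7 at 24 weeks, so the ages overlapped (log2 difference -0.37 ± 0.14, adjusted p = 0.0753). Ndufs7, which holds the last cluster before ubiquinone, was at 21.3, 21.4 and 27.1 CPM and 20.9, 17.1 and 19.2, with no overlap (log2 difference -0.29 ± 0.14, adjusted p = 0.149). Ndufs3, which joins the NADH and quinone modules, was at 17.9, 13.96 and 15.04 CPM and 13.2, 15.1 and 15.1 and overlapped between the ages (log2 difference -0.11 ± 0.14, adjusted p = 0.586). An annotated copy of its coding sequence makes the Ndufs3 count uncertain, as described with the levels.

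Of the 9 accessory subunits of the matrix arm, 8 were lower and 1, Ndufa5, did not pass, with a median log2 fold change of -0.66. Whether this group differed from the other groups was not tested. Ndufs6, a zinc-binding subunit of the NADH module, was at 8.47, 7.79 and 6.86 CPM at 5 weeks and 5.33, 2.96 and 4.49 at 24 weeks (log2 difference -0.86 ± 0.23, adjusted p = 0.0162). Its level was low, at 40 to 73 counts in the 24-week libraries. Ndufa2, a thioredoxin-fold subunit of the same module, was at 20.9, 20.3 and 24.97 CPM and 12.3, 13.97 and 11.96 (log2 difference -0.79 ± 0.14, adjusted p = 0.00201). Ndufa9, a nucleotide-binding subunit beside the quinone site, was at 68.3, 61.9 and 54.9 CPM and 36.1, 36.8 and 37.003 (log2 difference -0.75 ± 0.11, adjusted p = 0.000854). The 24-week values of Ndufa9 lay close together and well under the lowest 5-week value. The remaining 5 lower genes, Ndufa12, Ndufa6, Ndufa7, Ndufs4 and Ndufv3, had log2 fold changes of -0.48 to -0.67.

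In the proximal membrane arm, next to the matrix arm, 4 of 9 genes fell and 5 did not pass, with a median of -0.24. This group held the largest falls of the 36 genes. Ndufa1, a small single-span subunit needed early in assembly (chrX:37187588-37191163, minus strand), was at 17.3, 19.9 and 18.6 CPM at 5 weeks and 10.5, 8.13 and 7.01 at 24 weeks (log2 difference -1.11 ± 0.17, adjusted p = 0.000779). Ndufa3, another small membrane subunit (chr7:3617373-3620327, plus strand), was at 32.2, 34.6 and 36.6 CPM and 16.7, 18.2 and 14.8 (log2 difference -1.06 ± 0.12, adjusted p = 0.0002). Each was at less than the lowest 5-week value in every 24-week library, and passed in all 6 fits that left out a library. Ndufa13, also known as GRIM-19, was at 40.9, 39.3 and 42.99 CPM and 26.9, 28.5 and 25.7 (log2 difference -0.60 ± 0.11, adjusted p = 0.00233). Ndufc2, the remaining lower gene, gave -0.56 ± 0.15 (adjusted p = 0.0166).

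The genes closest to no change were in the membrane arm. Ndufs5, which sits on the outer face of the membrane arm, was at 0.781, 1.01 and 0.739 CPM at 5 weeks and 1.02, 0.739 and 0.654 at 24 weeks (log2 difference -0.03 ± 0.36, adjusted p = 0.954), from 7 to 32 counts a library. Ndufc1 was at 9.06, 8.32 and 5.50 CPM and 7.22, 6.65 and 8.22 (log2 difference -0.05 ± 0.21, adjusted p = 0.889). Ndufb2 was at 5.94, 9.98 and 6.75 CPM and 7.52, 7.47 and 8.41 (log2 difference 0.05 ± 0.21, adjusted p = 0.876). All 3 overlapped between the ages, and the signs of all 3 changed with the processing. The other members of the proximal arm that did not pass were Ndufa11, Ndufa10 and Ndufa8, at -0.24, -0.14 and -0.12.

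In the distal membrane arm 6 of 10 genes fell and 4 did not pass, with a median of -0.48. Ndufb1, another subunit of this arm, was not analysed here. Ndufb3 was at 25.1, 20.2 and 13.6 CPM at 5 weeks and 11.6, 11.01 and 11.2 at 24 weeks (log2 difference -0.80 ± 0.20, adjusted p = 0.014). Its 5-week values spread widely and replicate 3 was again the lowest, and the gene passed in 3 of the 6 fits that left out a library, with a log2 fold change nearest to 0 of -0.59. Ndufb10, a subunit of the intermembrane face, was at 33.9, 33.8 and 30.7 CPM and 22.8, 20.9 and 19.6 (log2 difference -0.63 ± 0.12, adjusted p = 0.00272), and it passed in all 6 fits that left out a library. Ndufb6 was at 13.8, 15.7 and 9.45 CPM and 8.83, 7.98 and 8.50 (log2 difference -0.61 ± 0.20, adjusted p = 0.0383), and it passed in 1 of those 6 fits. Ndufb9, Ndufb8 and Ndufb7 were the other lower genes, at -0.58, -0.55 and -0.41, and Ndufb7 passed in 2 of those 6 fits. Of the 10 genes, 9 had no overlap between the ages in the lower direction, beside 22.1% of all genes tested. These included 3 (Ndufb4, Ndufb5 and Ndufb11) that did not pass the test. With length and GC trends removed, 0 of the 10 were lower, with a median of -0.08.

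Ndufab1 went the other way. It encodes the mitochondrial acyl carrier protein, which is bound in both arms of complex I by the subunits Ndufa6 and Ndufb9 and also serves mitochondrial fatty acid synthesis and iron-sulphur cluster assembly. The gene (chr7:122085403-122101886, minus strand) was at 10.8, 8.10 and 8.71 CPM at 5 weeks and 12.3, 16.9 and 13.1 at 24 weeks. Every 24-week library was above every 5-week library (log2 difference 0.61 ± 0.18, adjusted p = 0.0238), and with trends in length and GC content removed the value was 0.56 ± 0.17 (adjusted p = 0.0239). It passed in 4 of the 6 fits that left out a library, and not without 5-week replicate 2 or 24-week replicate 2. All of its coding sequence is covered by 2 near-identical annotated copies, so the Ndufab1 count is uncertain, as described with the levels. The Ndufab1 carriers Ndufa6 and Ndufb9 fell, at -0.66 ± 0.12 (adjusted p = 0.0022) and -0.58 ± 0.15 (adjusted p = 0.0162). Ndufa6 passed in all 6 fits that left out a library and Ndufb9 in 4. With trends removed neither carrier passed, at -0.17 ± 0.10 (adjusted p = 0.235) and -0.14 ± 0.16 (adjusted p = 0.533).

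Most of these transcripts are short, and short transcripts as a class were lower at 24 weeks. Among protein-coding genes tested, 33.8% of those with a reference transcript under 1000 bases were called lower (n = 811, median log2 fold change -0.38), 21.9% of those from 1000 to under 2000 bases (n = 2817, median -0.18) and 7.87% of those of 2000 bases or more (n = 10230, median 0.08). Of the subunit genes, 14 of 21 in the shortest class were lower, 7 of 11 in the middle class and 1 of 4 in the longest. The medians of the subunit genes were -0.58, -0.52 and -0.05 in the 3 classes. Across the 36 subunit genes, the log2 fold change rose with log2 transcript length (Pearson's r = 0.556, Spearman's rho = 0.427). These genes share the 6 libraries, so the correlation is given as a description across genes. Ndufb2 and Ndufab1 had the longest reference transcripts (4371 and 3479 bases, with 315 and 468 coding bases) and the only positive values. The correlation, the counts of the longest class and the trend-removed values of Ndufb2 and Ndufab1 therefore depend on the transcripts chosen. The correlation without Ndufb2 and Ndufab1 was not computed.

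**Figure D2:**
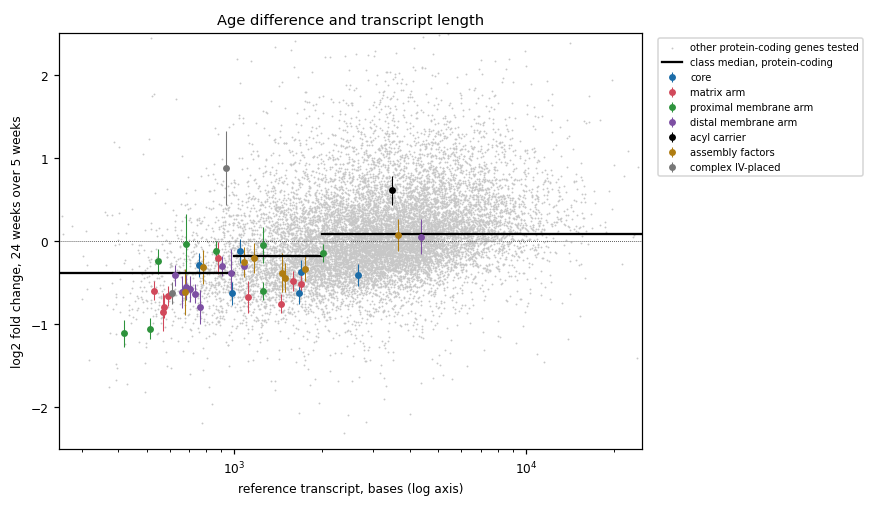
Log2 fold change between 24 and 5 weeks (y axis) against reference transcript length in bases (x axis, log scale) for 45 of the 46 genes (coloured by group, bars 1 SE) and the other protein-coding genes tested (grey), of which 28 of 13812 lie outside the axes. Black lines are the medians of the 3 length classes, -0.38, -0.18 and 0.08, and most coloured points lie at or under the line of their class.

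The fit was therefore repeated with smooth trends in transcript length and GC content removed in each library. Then 10 subunit genes were lower and 1 higher, the median was -0.15, and 15.8% of all genes tested were lower. The 10 genes were all among the 22, and included Ndufv1, Ndufs8, Ndufs1, Ndufa9, Ndufs4, Ndufv3, Ndufa1, Ndufa3 and Ndufa13. All 4 lower core genes, 3 of the 8 lower matrix-arm accessory genes and 3 of the 4 lower proximal genes were called in both fits, and 0 of the 6 lower distal genes. The trend-removed fit gave -0.54 for Ndufa1, -0.53 for Ndufa3 and -0.56 for Ndufa9, each nearer 0 than as first fitted. By length class, 3 of 21, 6 of 11 and 1 of 4 subunit genes were lower in this fit, beside 11.1%, 14.7% and 17.5% of the protein-coding genes tested in the same classes. The part of transcript length in the difference of any single gene was not tested. Base composition also separated 1 library: the log2 ratio of 5-week replicate 3 to the mean of 5-week replicates 1 and 2 ran from -0.73 for Ndufb3 (GC content 44.95%) to 0.35 for Ndufs7 (60.7%). Across the 36 subunit genes this ratio rose with GC content (Pearson's r = 0.693, Spearman's rho = 0.658, as a description across genes of the same libraries).

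**Figure D3:**
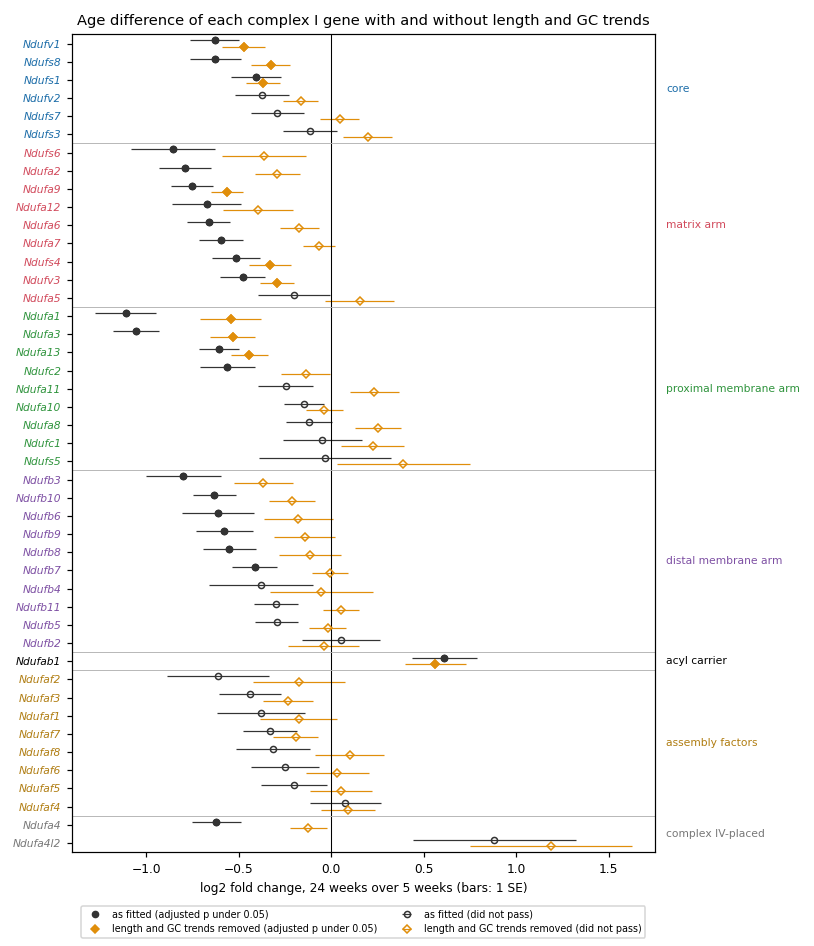
Log2 fold change of 45 of the 46 genes, 24 weeks over 5 weeks, with bars of 1 SE (x axis), as fitted (dark circles) and with length and GC trends removed (orange diamonds). Filled symbols had an adjusted p under 0.05. The 21 lower subunit genes plotted have a filled circle left of 0, and 9 of them also have a filled diamond there.

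The levels of the 36 subunit genes differed more among genes than between ages. Levels between genes are given per kilobase of reference transcript. The highest at 5 weeks were Ndufa3 at 66.9 ± 4.28 CPM per kb, Ndufa7 at 63.3 ± 6.52 and Ndufb9 at 59.9 ± 4.54 (SD, n = 3), and these neighbours differed by less than their spread. The lowest were Ndufs5 at 1.24 ± 0.212, Ndufb4 at 1.60 ± 0.103 and Ndufb2 at 1.73 ± 0.489 CPM per kb. The highest was 54.0-fold above the lowest, and 24 of the 36 genes lay within 2-fold of the median of 26.2 CPM per kb. Without the genes that have a near-identical annotated copy, whose counts are uncertain as described below, the highest was 38.7-fold above the lowest. At 24 weeks the highest were Ndufa7 at 42.0 ± 1.38 and Ndufb9 at 40.0 ± 8.34 CPM per kb. Ndufa3 was then in place 5 and Ndufa1 had moved from place 7 to place 17. The order was otherwise similar (Spearman's rho = 0.960 between ages across the 36 genes, which share the same transcript lengths). The per-kilobase levels of Ndufb2 and Ndufab1 depend on the long reference transcripts chosen for them, of 4371 and 3479 bases.

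**Figure D4:**
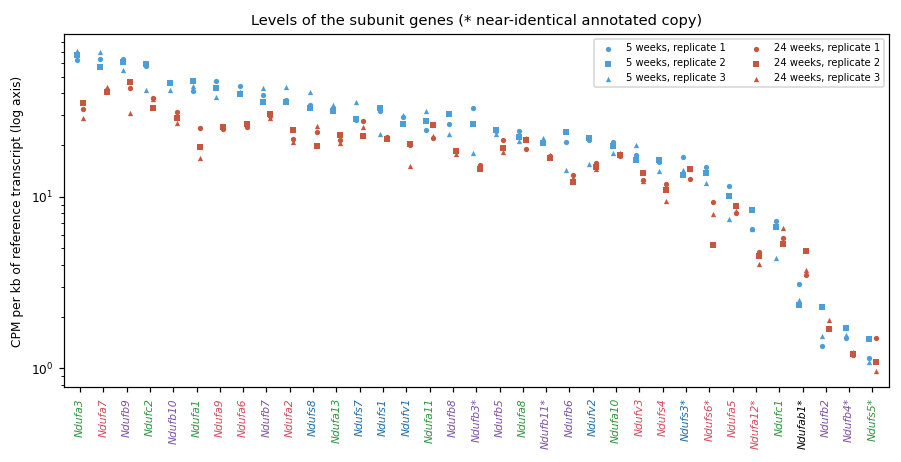
Level of 35 of the 36 subunit genes in CPM per kilobase of reference transcript (y axis, log scale) in each library, in order of the 5-week mean (x axis). Blue points are 5-week and red points 24-week libraries, and asterisks mark genes with a near-identical annotated copy. The lowest levels include Ndufs5, Ndufb4 and Ndufab1, which have such copies.

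The low counts of some subunits touch on a limit of the counting. Only uniquely aligned reads were counted, and 8 subunit genes have a near-identical copy of their coding sequence among the annotated transcripts of other genes. Unannotated copies were not searched for. These are Ndufa12, Ndufab1, Ndufb11, Ndufb3, Ndufb4, Ndufs3, Ndufs5 and Ndufs6, with 96.5% to 100% identity over the aligned bases, and the longest copy of each is annotated as a processed pseudogene. Their median level at 5 weeks was 10.3 CPM per kb, against 29.97 for the 28 genes without such an annotated copy. Of the 8, 3 were lower and 1 higher at 24 weeks, and of the 28, 19 were lower. Counts can be split between gene and copy, and the copies differed widely in how many counts they took. Gm12251, the copy of Ndufs3, held 273 to 633 counts at 5 weeks, where Ndufs3 held 319 to 651. The counts of the copies are not scaled for depth, which was lower at 24 weeks, so they do not compare the ages. Gm4459, the longest copy of Ndufab1, held 83 to 142 counts at 5 weeks and 29 to 52 at 24 weeks. Ndufab1 itself held more in every library. BC002163, the copy of Ndufs5 on chromosome 16, held 176 to 232 counts at 5 weeks and 64 to 83 at 24 weeks, more than Ndufs5 itself in every library. Ndufb4c, the longest of 2 copies of Ndufb4, and Ndufs6b, the copy of Ndufs6, held 2 to 12 and 4 to 29 counts. Both held fewer than those genes in every library, and the copy of Ndufb3, Gm45930, was not analysed here. Ndufb4c has 100% identity over all 387 coding bases of Ndufb4. Reads that align equally to a gene and its copy were counted for neither, so a low count of a copy does not show how many reads were lost. The part of this in the age differences was not tested. To show how alike such copies are, the first 300 bases of the Ndufs5 coding sequence and the matching bases of BC002163, annotated as a processed pseudogene, are printed from the GENCODE M21 transcripts, 5′ to 3′, in which capitals mark the 2 bases that differ:
Ndufs5: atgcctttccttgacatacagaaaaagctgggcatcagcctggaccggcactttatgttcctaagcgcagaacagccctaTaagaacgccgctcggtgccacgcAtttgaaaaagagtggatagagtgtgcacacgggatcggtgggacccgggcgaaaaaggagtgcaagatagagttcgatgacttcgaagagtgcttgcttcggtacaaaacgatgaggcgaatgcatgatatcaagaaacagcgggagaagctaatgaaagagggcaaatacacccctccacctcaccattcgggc
BC002163: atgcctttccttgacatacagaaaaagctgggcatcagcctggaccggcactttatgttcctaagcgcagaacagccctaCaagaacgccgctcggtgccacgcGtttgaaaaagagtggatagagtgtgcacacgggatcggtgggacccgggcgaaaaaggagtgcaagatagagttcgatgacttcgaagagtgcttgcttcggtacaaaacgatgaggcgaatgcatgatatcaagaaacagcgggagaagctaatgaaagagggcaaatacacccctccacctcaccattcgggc

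Read pairs that cover neither difference have the same sequence in both places. The Ndufs5 count covers only the reads that could be placed.

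The 8 Ndufaf assembly factors were less abundant, with a median of 6.46 CPM per kb at 5 weeks. Of these, 0 passed edgeR's test, beside 13.3% of all genes tested that were called lower, and 0 passed by DESeq2 or limma-voom. Their median log2 fold change was -0.32, and 7 of 8 values were negative. Ndufaf2, which acts at a late step of assembly, was at 6.53, 4.77 and 3.37 CPM at 5 weeks and 2.85, 2.96 and 3.83 at 24 weeks (log2 difference -0.61 ± 0.27, adjusted p = 0.119). Ndufaf3 and its partner Ndufaf4 act on the quinone module. Ndufaf3 was at 10.003, 9.37 and 12.5 CPM and 8.39, 7.24 and 7.94 with no overlap (log2 difference -0.44 ± 0.17, adjusted p = 0.0747), whereas Ndufaf4 was at 10.6, 13.5 and 8.41 and 10.9, 10.1 and 13.1 with overlap (log2 difference 0.08 ± 0.19, adjusted p = 0.795). Ndufaf1, a member of the membrane-arm assembly complex, was at 9.50, 7.31 and 5.61 CPM and 6.64, 4.44 and 6.17 (log2 difference -0.38 ± 0.24, adjusted p = 0.256).

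The remaining 4 factors include enzymes. Ndufaf5 hydroxylates Ndufs7 and works with Ndufaf8, and Ndufaf7 is a methyltransferase. Their log2 fold changes were -0.20 ± 0.18 (adjusted p = 0.426) for Ndufaf5, -0.31 ± 0.20 (adjusted p = 0.268) for Ndufaf8 and -0.33 ± 0.15 (adjusted p = 0.113) for Ndufaf7. Ndufaf6 gave -0.25 ± 0.18 (adjusted p = 0.33), from 5.44, 5.47 and 5.20 CPM to 4.74, 4.66 and 4.11, with no overlap between the ages. Without 5-week replicate 3, 2 factors (Ndufaf2 and Ndufaf7) were called lower, beside 17.7% of all genes tested. With length and GC trends removed the median of the 8 was -0.07 and 4 values were negative. A difference between the factors and the subunit genes was not tested.

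Both genes placed with complex IV were tested too. Ndufa4, now counted as a subunit of cytochrome c oxidase, was at 44.8, 43.3 and 33.8 CPM at 5 weeks and 24.5, 27.9 and 26.8 at 24 weeks and fell (log2 difference -0.62 ± 0.13, adjusted p = 0.00606). With trends removed its value was -0.12 ± 0.10 (adjusted p = 0.369). Its paralog Ndufa4l2, a hypoxia-inducible gene that is abundant in pericytes, had 9, 21 and 37 counts at 5 weeks and 21, 15 and 12 at 24 weeks. In CPM this was 0.281, 0.919 and 0.855, and then 1.53, 1.11 and 1.12, with no overlap in the higher direction, but the gene did not pass (log2 difference 0.88 ± 0.44, adjusted p = 0.158). Markers of mural cells, to which pericytes belong, rose in 6 of 8 cases, with a summed level of 155 to 187 CPM at 5 weeks and 290 to 323 at 24 weeks, and no mural marker was at 0 in all libraries. Their part in the Ndufa4l2 value was not tested.

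Complex I also needs 7 subunits encoded in mitochondrial DNA, which form the core of the membrane arm. Of these, 5 were tested and all 5 rose, beside 15.5% of all genes tested that were called higher. Their median log2 fold change was 2.34, opposite in sign to most of the nuclear genes. mt-Nd5 was at 224, 228 and 263 CPM at 5 weeks and 1457, 1549 and 1493 at 24 weeks (log2 difference 2.65 ± 0.13, adjusted p = 5.05e-07). mt-Nd4 was at 186, 188 and 195 CPM and 992, 1112 and 773 (log2 difference 2.34 ± 0.15, adjusted p = 3.73e-06). mt-Nd2 was at 276, 293 and 337 CPM and 851, 942 and 795 (log2 difference 1.51 ± 0.13, adjusted p = 2.57e-05). In each case the 24-week libraries were all above the 5-week libraries. mt-Nd1 rose by 1.37 ± 0.15 and mt-Nd6 by 2.45 ± 0.38 on the log2 scale. The 5-week values of mt-Nd6 spread widely, at 38.1, 35.9 and 9.80 CPM, against 154, 159 and 141 at 24 weeks. mt-Nd3 and mt-Nd4l, at 0 to 8 counts a library, were too low to test. These 5 genes also rose with length and GC trends removed. Reads of mitochondrial origin can also match nuclear copies of mitochondrial DNA, and the part of alignment in these values was not tested.

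The rest of the respiratory chain was read from lists of genes for each complex. In complex II (succinate dehydrogenase and its assembly factors), 5 of 8 genes fell and 0 rose, with a median of -0.49, and 4 fell with trends removed. Sdhc, a membrane anchor of that complex, was at 59.8, 61.3 and 60.4 CPM at 5 weeks and 39.2, 35.5 and 37.2 at 24 weeks (log2 difference -0.70 ± 0.10, adjusted p = 0.000697). Sdhd and Sdhb gave values of -0.68 ± 0.11 (adjusted p = 0.00125) and -0.47 ± 0.12 (adjusted p = 0.0145). Among 36 nuclear genes of complexes III, IV and V, 24 fell and 1 (Uqcrq) rose, with a median of -0.57, beside 22 and 1 of the 36 complex I subunits with a median of -0.53. With trends removed 14 fell and 3 rose. Atp5k, a small subunit of ATP synthase, was at 20.5, 18.96 and 18.5 CPM and 5.25, 5.54 and 6.35 (log2 difference -1.76 ± 0.15, adjusted p = 2.57e-05). Atp5e and Atp5j2, also of ATP synthase, gave values of -1.24 ± 0.11 (adjusted p = 3.19e-05) and -1.13 ± 0.12 (adjusted p = 0.000107). The shared comparison of the same 6 libraries means that these lists are not independent of each other.

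The lists around complex I are small, and their counts stand beside 13.3% of all genes tested called lower and 15.5% called higher. Of 11 other assembly factors, 1 fell: Foxred1, with 46.7, 41.9 and 40.9 CPM at 5 weeks and 24.7, 26.98 and 30.4 at 24 weeks (log2 difference -0.66 ± 0.12, adjusted p = 0.00254). The median of that list was -0.11. Of 12 genes of iron-sulphur cluster assembly, 1 fell (Glrx5, log2 difference -0.91 ± 0.18, adjusted p = 0.00441), with a median of -0.11. Of 14 genes of the tricarboxylic acid cycle and pyruvate dehydrogenase, the source of most NADH for complex I, 4 fell and 0 rose, with a median of -0.22. Among them Fh1 and Pdhb fell, at -0.48 ± 0.12 (adjusted p = 0.0134) and -0.41 ± 0.13 (adjusted p = 0.0318).

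Of 10 genes of other routes of NADH oxidation or electron entry, 3 fell and 1 rose, with a median of -0.19. Ldhb (lactate dehydrogenase B), Sqor and Mdh1 fell, at -0.58 ± 0.10 (adjusted p = 0.00227), -0.42 ± 0.10 (adjusted p = 0.0124) and -0.41 ± 0.10 (adjusted p = 0.0128), and Gpd2, the mitochondrial glycerol phosphate dehydrogenase, rose, at 0.51 ± 0.16 (adjusted p = 0.0324). Of 13 genes of mitochondrial import, the outer membrane and proteostasis, used as markers of mitochondrial content, 4 fell, with a median of -0.26. The smallest p-values there belonged to Lonp1, Tomm20 and Vdac2, at -0.58 ± 0.10 (adjusted p = 0.00238), -0.50 ± 0.13 (adjusted p = 0.0132) and -0.37 ± 0.10 (adjusted p = 0.0178).

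Regulators of mitochondrial biogenesis did not follow 1 direction. Of 12 such genes, 3 rose and 1 fell, with a median of 0.10. Over all genes tested, 15.5% were called higher and 13.3% lower. The 3 that rose were the PGC-1 family coactivators: Pprc1 with 34.5, 46.2 and 55.1 CPM at 5 weeks and 75.8, 79.8 and 88.1 at 24 weeks (log2 difference 0.84 ± 0.16, adjusted p = 0.00288), Ppargc1b (log2 difference 1.14 ± 0.22, adjusted p = 0.00348) and Ppargc1a (log2 difference 0.85 ± 0.22, adjusted p = 0.0155). The gene that fell was Esrra, the orphan nuclear receptor ERR alpha through which these coactivators act, at 36.7, 36.2 and 46.9 CPM and then 24.8, 28.02 and 29.4 (log2 difference -0.55 ± 0.14, adjusted p = 0.0122). Nrf1, Gabpa and Yy1, factors known to bind promoters of respiratory chain genes, gave values of 0.04 ± 0.12 (adjusted p = 0.833), -0.17 ± 0.14 (adjusted p = 0.383) and 0.05 ± 0.11 (adjusted p = 0.762). With length and GC trends removed, 3 of the 12 rose and 3 fell by edgeR's test. Those that fell were Esrra at -0.55 (adjusted p = 0.00145), Tfam at -0.46 (adjusted p = 0.00901) and Gabpa at -0.28 (adjusted p = 0.0161).

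**Figure D5:**
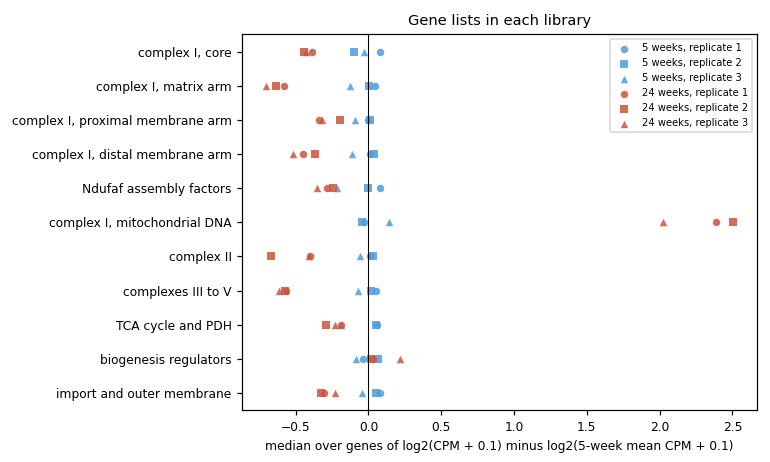
Median over the genes of each list of log2(CPM + 0.1) minus log2 of the gene's mean 5-week CPM + 0.1 (x axis) in each library, for the groups of nuclear complex I genes and related lists (y axis). The mitochondrially encoded complex I genes reach 2.03 to 2.51 at 24 weeks, whereas the matrix-arm accessory genes lie between -0.71 and -0.58 and the core genes between -0.44 and -0.39.

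Markers of other cell types also differed between the ages, and complex I genes are transcribed in all of these cells. Endothelial markers rose in 9 of 10 cases (summed level 272 to 325 CPM at 5 weeks and 619 to 652 at 24 weeks), among them Flt1 (log2 difference 2.07 ± 0.11, adjusted p = 8.09e-07). Border-associated macrophage markers fell in 5 of 6 cases (832 to 1094 CPM and 461 to 551), among them Cbr2 (log2 difference -1.45 ± 0.12, adjusted p = 2.22e-05). Oligodendrocyte markers fell in 3 of 6 cases (1742 to 2985 CPM and 1059 to 2919), astrocyte markers in 2 of 6 (400 to 575 CPM and 340 to 386), and of 6 neuronal markers 2 fell and 1 rose (54.0 to 55.8 CPM and 23.8 to 62.3). Of the 8 microglia markers, Sall1 rose (log2 difference 0.95 ± 0.15, adjusted p = 0.00123) and Fcrls and Tmem119 fell. No marker of choroid plexus and ependyma (5 tested, 5072 to 7675 CPM and 4558 to 5879) or of neutrophils and monocytes (6 tested, 110 to 253 CPM and 75.8 to 172) passed edgeR's test. No marker in any list was at 0 in all libraries. The part of cell composition in the complex I values was not tested.

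Promoters of the subunit genes were also described, and no link of their motifs to the age differences was tested. RefSeq windows of 300 bases (250 before the start and 50 after it, GRCm38.p6) matched 40 of the 46 genes, 32 of them subunits. Short motifs were searched on both strands. AAGATGGC, the letters bound by YY1, stood in 7 of 32 subunit promoters (21.9%), against 4.88% of the promoters of 10875 protein-coding genes tested and 3.19% of all 27025 genes with a window. GCGCANGCG, of the NRF1 type, stood in 8 of 32 (25%, against 14.5% of tested protein-coding genes). CCGGAAG, of the ETS type, stood in 4 (12.5% against 18.6%), GGGCGG, of the SP1 type, in 15 (46.9% against 67.5%) and CCAAT in 10 (31.2% against 42.7%). Of the subunit genes that were lower at 24 weeks, 5 of 18 held AAGATGGC, and of the others 2 of 14. For the NRF1 type these counts were 3 of 18 and 5 of 14, and for the ETS type 3 and 1. For the SP1 type they were 8 and 7, and for CCAAT 7 and 3. None of these splits was tested.

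In every one of the 7, and in Ndufaf8, the motif lay 10 to 38 bases after the annotated start and read in the direction of the gene. As transcribed and within the 50 bases after the start, it was found in 21.9% of the subunit genes and 2.28% of tested protein-coding genes. The 8 stretches of 30 bases are shown because they hold the shared motif, 5′ to 3′ on the strand of the gene, with AAGATGGC in capitals. It overlapped none of the other motifs searched. In 7 of the 8, the subunit genes, the ATG inside the motif is the start codon of the reference transcript, so part of the motif is coding sequence. Those of Ndufa3 (chr7:3617384-3617413, plus strand), Ndufa9 (chr6:126849097-126849126, minus strand) and Ndufs4 (chr13:114388045-114388074, minus strand) belong to genes that were lower in both fits:
Ndufa3: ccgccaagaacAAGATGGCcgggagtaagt
Ndufa9: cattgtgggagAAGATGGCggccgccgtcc
Ndufb8: tgaaccgcggagaaggtgAAGATGGCtgcc
Ndufs4: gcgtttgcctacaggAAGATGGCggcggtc
Ndufs6: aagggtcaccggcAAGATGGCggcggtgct
Ndufs7: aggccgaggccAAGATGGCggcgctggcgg
Ndufc1: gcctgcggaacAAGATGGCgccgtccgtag
Ndufaf8: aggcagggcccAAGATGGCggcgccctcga

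The first 5 of these genes fell at 24 weeks and Ndufs7, Ndufc1 and Ndufaf8 did not pass. A match of letters is a description of the window and does not show that a factor bound there.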

How the data were processed

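Total RNA of CD11b-positive cells from 6 wild-type mice (3 at 5 weeks, 3 at 24 weeks) was sequenced by the authors as strand-specific read pairs. Per the authors' methods, reads were trimmed with trim_galore, aligned to GRCm38/mm10 with TopHat2 2.0.13 and counted for Ensembl release 75 genes with HTSeq 0.6.1 from unique alignments. The deposited values are raw counts per gene, and depth differs between the ages. Rows of reads without a gene were left out of library sizes: 40.0% to 41.8% of unique alignments at 5 weeks and 48.7% to 54.9% at 24 weeks had no feature. Here symbols, transcript lengths and biotypes came from GENCODE release M21 (37607 of 38924 identifiers matched). Genes with too few counts were removed with filterByExpr, counts were scaled by TMM and tested with edgeR 4.0.16 (R 4.3.3) quasi-likelihood, adjusted over 16157 genes at 0.05. A test on simulated counts was also run. Near-identical copies were sought among annotated transcripts with blastn 2.17.0 (at least 95% identity over at least a read length). Levels per kilobase used the reference transcript. Alternatives were median-ratio factors, total counts, DESeq2 1.42.0, limma-voom 3.58.1, other count filters, length and GC trends removed, each library left out, and a replicate block. The members and gene lists were chosen with earlier results of these data known. Named genes were the core subunits, the 3 largest changes per group, the 3 highest, lowest and least changed genes, all Ndufaf genes and up to 3 genes of smallest p per other list. Genes named outside it (such as lower members given by range, Nrf1, Gabpa, Yy1, Gpd2 and Ppargc1a) were chosen after their values were seen. The values of some genes that enter the counts are not reported here.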

Additional observations from a re-analysis of the deposited data

How the results depend on the processing

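Of 636 repeats of the 46 single-gene results, 549 kept their direction and side of the threshold, 55 lost significance, 5 gained it and 27 changed sign, and no gene that passed changed sign. With length and GC trends removed, 10 subunit genes were lower at 24 weeks in place of 22, and their median was -0.15 in place of -0.53 (log2). Scaling by total counts only moved the median to -0.44 and the median of all genes to 0.10. The calls over all genes were then 3229 higher and 1466 lower, against 2505 and 2141, and 19 subunit genes were lower. Leaving out 1 library at a time gave 13 to 24 lower and 0 to 1 higher subunit genes, medians of -0.58 to -0.45, and 0 to 2 lower Ndufaf genes. The count of lower subunit genes was 13 without 24-week replicate 2 and 14 without 5-week replicate 1, and the 2 Ndufaf genes passed without 5-week replicate 3. Over all genes tested the share called lower was 7.03%, 8.13% and 17.7% in these 3 fits, against 13.3% with all libraries. The cause was not tested. The summed level of the subunit genes, as a log2 ratio, was -0.56 per kilobase, -0.50 without division by length and -0.47 with total counts.

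Among the other lists, 2 of the other assembly factors were lower with median-ratio factors, without a count filter and with at least 50 counts in every library. Total counts only gave 2 higher genes of other NADH routes, 1 lower gene of the tricarboxylic acid cycle and 2 lower genes of mitochondrial content. Without a filter 2 biogenesis regulators were lower. With trends removed, 3 genes of complexes III to V were higher and 14 lower, 2 other assembly factors were higher and 2 lower, 1 gene of the tricarboxylic acid cycle was higher, 3 biogenesis regulators were lower, and 2 iron-sulphur assembly genes were higher and 2 lower. The cause was not tested.

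The changes of sign were all in genes that did not pass. With trends removed the log2 fold changes were 0.23 for Ndufa11, 0.15 for Ndufa5, 0.25 for Ndufa8, 0.054 for Ndufaf5, 0.033 for Ndufaf6, 0.10 for Ndufaf8, 0.053 for Ndufb11, -0.041 for Ndufb2, 0.23 for Ndufc1, 0.20 for Ndufs3, 0.39 for Ndufs5 and 0.045 for Ndufs7. With total counts only they were 0.043 for Ndufc1 and 0.062 for Ndufs5, and by limma-voom 0.0097 and 0.013. Leaving out 1 library gave -0.10 to 0.28 for Ndufb2, -0.24 to 0.10 for Ndufc1, -0.25 to 0.085 for Ndufs5 and -0.070 to 0.25 for Ndufaf4.

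The replicate numbers name different mice and do not pair the samples: deviations of same-numbered libraries correlated at 0.06, 0.10 and -0.05 over 16157 genes. With a replicate block, 21 subunit genes were lower and 1 higher, with a median of -0.53. The least counted subunit gene, Ndufs5, had 7 to 14 counts in the 24-week libraries and an SE of 0.36 on the log2 scale.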
